A study of Homo sapiens with 24 samples.

Results

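The 43 interferon-stimulated genes described here were found by symbol in the tables of 2 acute myeloid leukaemia cell lines, and all 43 were among the 35587 gene symbols of both tables. RNA was sequenced from 24 libraries in 6 groups of 4. MOLM14 cells were given ARM165, AZ2 or DMSO for 24 h, and so were OCI-AML2 cells. MOLM14 and OCI-AML2 are established human lines, so each stands for 1 leukaemia. DMSO is the solvent control. The title of the study names PI3K gamma, AKT signalling and a heterobifunctional degrader, a molecule that brings a target protein to the cell's own degradation machinery, but the labels tie neither compound name to it and give no dose. Nothing states that the 4 libraries of a group are separate cultures, and p-values here measure only how libraries of a group scatter, which may be technical scatter.

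Type I and III interferons are proteins that cells secrete on sensing foreign or misplaced nucleic acid, and the type II interferon, interferon gamma, comes mainly from lymphocytes. Type I and III interferons act through receptors and Janus kinases on a complex of STAT proteins with IRF9, which binds the interferon-stimulated response element (ISRE), whereas interferon gamma acts mainly through STAT dimers on the gamma-activated site (GAS). The genes induced in this way include the factors of the pathway themselves, sensors of viral RNA, enzymes that block translation or degrade RNA, membrane proteins that hinder virus entry and release, and the ubiquitin-like ISG15 system. Several of these genes, IRF1 among them, are also driven by other signals.

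The promoters of 5 members are shown because 4 of them hold ISRE cores while their changes, reported below, ran in different directions, and IRF1 holds a GAS core. They cover the 250 bases before the transcription start in the RefSeq table of GRCh38.p14, read 5′ to 3′ on the strand of the gene, and capitals mark each ISRE core (GAAA, any 2 bases, GAAA, on either strand) or GAS core (TTCNNNGAA).
IRF1 (chr5:132490774-132491023, minus strand): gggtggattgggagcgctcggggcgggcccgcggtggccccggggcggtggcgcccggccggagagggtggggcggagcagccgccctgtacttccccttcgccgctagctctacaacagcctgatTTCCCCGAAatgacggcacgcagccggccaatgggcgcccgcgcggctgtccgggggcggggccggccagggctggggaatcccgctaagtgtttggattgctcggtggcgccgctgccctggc
IFIT3 (chr10:89327747-89327996, plus strand): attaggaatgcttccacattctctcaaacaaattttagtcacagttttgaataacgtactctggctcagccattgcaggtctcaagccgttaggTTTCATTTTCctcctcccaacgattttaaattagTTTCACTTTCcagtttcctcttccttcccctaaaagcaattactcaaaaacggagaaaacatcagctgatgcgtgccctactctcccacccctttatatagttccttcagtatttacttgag
ISG15 (chr1:1013247-1013496, plus strand): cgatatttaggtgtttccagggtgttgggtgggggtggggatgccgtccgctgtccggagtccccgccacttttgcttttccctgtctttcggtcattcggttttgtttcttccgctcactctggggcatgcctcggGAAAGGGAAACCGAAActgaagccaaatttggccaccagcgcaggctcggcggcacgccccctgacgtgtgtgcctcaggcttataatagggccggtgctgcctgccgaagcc
BST2 (chr19:17405631-17405880, minus strand): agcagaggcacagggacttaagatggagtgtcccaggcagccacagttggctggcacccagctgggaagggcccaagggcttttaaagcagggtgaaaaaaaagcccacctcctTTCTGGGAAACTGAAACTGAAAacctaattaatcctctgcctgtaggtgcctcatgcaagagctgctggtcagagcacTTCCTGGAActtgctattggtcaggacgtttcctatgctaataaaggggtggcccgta
HERC5 (chr4:88456869-88457118, plus strand): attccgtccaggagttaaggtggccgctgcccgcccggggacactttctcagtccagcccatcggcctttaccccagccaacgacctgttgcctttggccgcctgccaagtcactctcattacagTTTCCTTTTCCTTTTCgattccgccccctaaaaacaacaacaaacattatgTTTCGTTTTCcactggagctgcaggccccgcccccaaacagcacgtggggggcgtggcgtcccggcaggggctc
IRF1 and IFIT3 rose with ARM165 in both lines, ISG15 fell in MOLM14 and rose in OCI-AML2, and BST2 and HERC5 fell in both. IRF1 held 1 GAS core and 0 ISRE cores, IFIT3 held 2 ISRE cores, ISG15 held 2 that overlap, and HERC5 held 3, of which 2 overlap. BST2 held 2 overlapping ISRE cores and 2 GAS cores, 1 of which runs into the ISRE cores.

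The table held a promoter of 300 bases (250 before and 50 after the start) for 34 of the 43 members, and none for IRF7, ZBP1, OAS2, OASL, IFIT2, MX2, IFITM2, USP18 and TRIM22. An ISRE core lay in 21 of the 34 (61.8%), and in 996 of all 27305 promoters of that length (3.65%). A GAS core lay in 8 of the 34 (23.5%) and in 2152 of all promoters (7.88%). Among members that rose in both lines, 8 of 16 promoters held an ISRE core, and among those that fell in both, 2 of 2 did. Among members that rose in OCI-AML2 it was 16 of 28, and among the others 5 of 6. A match describes these letters and shows no binding.

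Values are normalized estimated reads per gene. The values of each line came already normalized and apart from the other line, by a method that is not given. Changes are therefore read against the rest of the transcriptome, and levels were tested neither between lines nor between genes. The marker levels below are only a rough description. In bulk RNA fewer cells with a transcript and less of it per cell cannot be told apart. Estimated reads per library ran from 35.4 M to 59.0 M. The mean normalized total in MOLM14 was 38.7 M with ARM165, 44.9 M with AZ2 and 44.2 M with DMSO. Of 8 myeloid marker genes, CD33, SPI1, CEBPA, PTPRC and LYZ were high in both lines. CSF1R was lower (at most 176 in MOLM14 and 159 in OCI-AML2), as were ANPEP and MPO (at most 148 in MOLM14 and 30.5 in OCI-AML2). In MOLM14, MPO averaged 27.8 ± 5.14 with ARM165, 125.6 ± 17.3 with AZ2 and 124.4 ± 9.47 with DMSO (SD, n = 4 each). The summed value of these 8 was 38128 to 44717 with ARM165, 57845 to 60670.4 with AZ2 and 57780 to 60976 with DMSO in MOLM14. In OCI-AML2 it was 52515 to 54172 with ARM165, 90773 to 97545 with AZ2 and 91277 to 98338 with DMSO, and the part of this in the results below was not tested. Most of the gap lay in LYZ, which averaged 2677 ± 200.4 with ARM165, 19254 ± 539 with AZ2 and 20319 ± 455 with DMSO in MOLM14, and 19744 ± 1287, 45416 ± 1608 and 47537 ± 4048 in OCI-AML2 (SD, n = 4 each), with CEBPA also lower in the ARM165 libraries of both lines. PTPRC went the other way in both lines (5915 to 6621 with ARM165 and 2134 to 2566 with DMSO in MOLM14, 2479 to 3074 and 1584 to 1946 in OCI-AML2), as did SPI1 in MOLM14 (7325 to 8359 with ARM165 and 6026 to 6516 with DMSO). Defining markers of other cell types were at or near 0. CD3D, CD3E, CD2, MS4A1, CLEC4C, LILRA4, HBA1 and EPCAM were at most 12.7 in every library. NCAM1 (3316 to 4510 in MOLM14, 732 to 1626 in OCI-AML2), IL3RA and TCF4 were present in both lines, and KRT18, KRT8 and PAX5 in MOLM14. The 5 epithelial and fibroblast markers summed to 3610.0 to 3901 with ARM165, 2093 to 2436 with AZ2 and 2063 to 2375 with DMSO in MOLM14, nearly all of it KRT18 and KRT8. The 5 T and NK cell markers, nearly all NCAM1, summed to 732 to 832 with ARM165, 1460.4 to 1520.1 with AZ2 and 1400.5 to 1636 with DMSO in OCI-AML2. In MOLM14 they went the other way, with 3997 to 4527, 3398 to 3813 and 3797 to 3934 in that order. The 4 B cell markers summed to 312 to 393 with ARM165, 470 to 710 with AZ2 and 551 to 668 with DMSO in MOLM14. In OCI-AML2 these sums were 17.5 to 40.7, 35.2 to 57.0 and 48.1 to 70.4.

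The first question was how ARM165 altered these genes in each line. In OCI-AML2, 34 of the 42 members tested were higher after ARM165 (81%), 5 were lower (11.9%) and 3 did not pass. A member was called at an adjusted p under 0.05 in limma, a linear model with moderated variances fitted to all genes of the line, with Benjamini-Hochberg adjustment over all of them. Of all 15377 genes tested in that line, 34.2% were higher, 31.6% lower and 65.8% called in either direction. The median log2 change, on the log2(value + 1) scale, was 1.22 over the members and 0.03 over all genes. Its median size in either direction was 1.36 over the members and 0.66 over all genes. Of the members, 24 rose by at least 1 while 3 fell by at least 1, and the share of all genes past that size was not computed. RSAD2 was too low to be tested in OCI-AML2. In MOLM14, EPSTI1 reached the filter on low values through ARM165 libraries and 1 DMSO library. In OCI-AML2 it did so only through its ARM165 libraries, and so was bound to be higher in them. With EPSTI1 left out, 33 of 41 members were higher and 5 lower in OCI-AML2, with a median of 1.18.

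In MOLM14, 19 of the 41 members tested were higher after ARM165 (46.3%), 10 were lower (24.4%) and 12 did not pass. Of all 15288 genes tested, 35.5% were higher, 34% lower and 69.5% called, so the 70.7% of members called lay near the background. The median log2 change was 0.46 over the members and 0.03 over all genes, and its median size in either direction was 0.95 and 0.63. Of the members, 12 rose and 4 fell by at least 1, and the share of all genes past that size was not computed. IFI27 and IFI44L were too low to be tested in MOLM14. When libraries were instead scaled to equal totals, the median of all genes moved to 0.22, a shift of 0.19, and 61.6% of called genes were higher in place of 51.1%. Among the members the counts were then 24 higher and 9 lower, with calls gained for IFIT1 (0.64), OASL (1.14), MX2 (0.67), SAMD9 (0.27) and IFI35 (0.25) and lost for ADAR (-0.011).

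**Figure D1:**
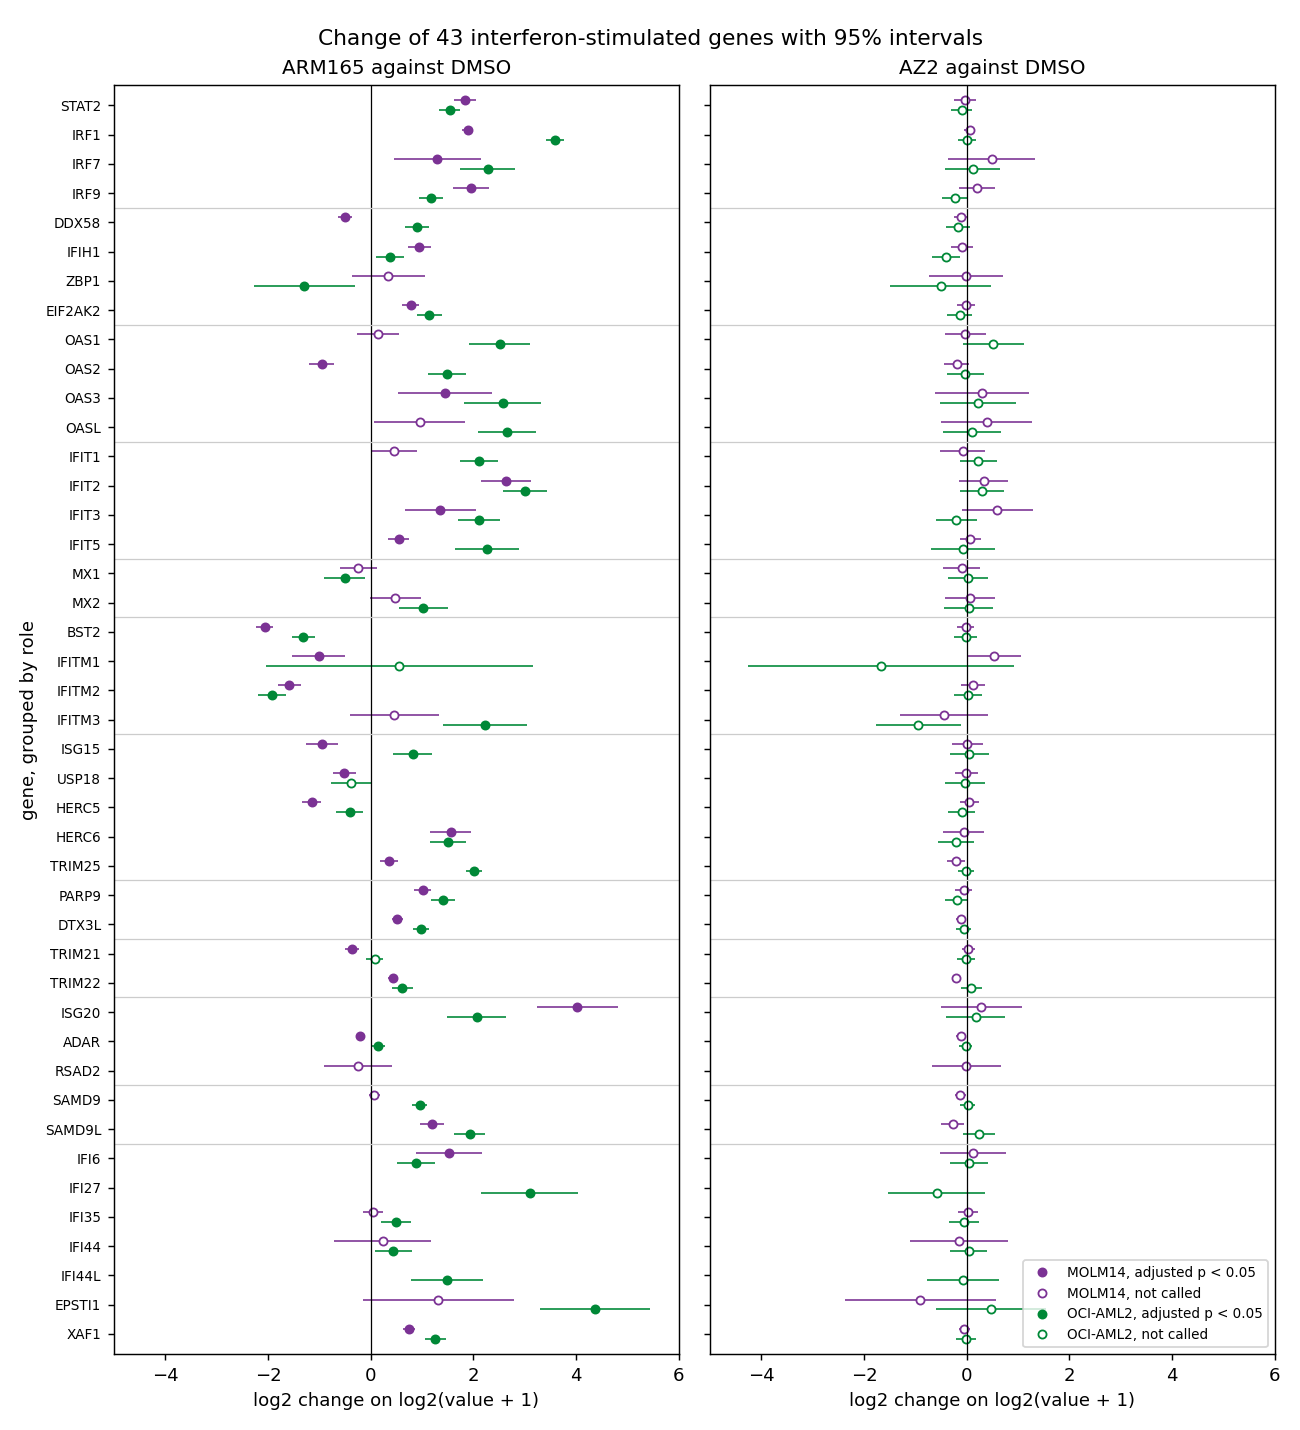
Log2 change of each member with its 95% interval on the horizontal axis, with genes down the page in role groups separated by grey lines, for ARM165 against DMSO (left panel) and AZ2 against DMSO (right panel). Purple points are MOLM14, green points are OCI-AML2, and filled points passed the test. With ARM165, 34 members in OCI-AML2 and 19 in MOLM14 lie to the right as filled points, and with AZ2 no point is filled.

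The transcription factors of the pathway rose in both lines, 4 of 4 in each. IRF1, an activator of interferon and antiviral genes, had 3721, 3769, 3695 and 4138 in MOLM14 with ARM165, 1046 to 1113 with AZ2, and 1009, 1049.9, 1016 and 1038 with DMSO. In OCI-AML2 it had 5595, 5844, 5644 and 5529 with ARM165, 428 to 515 with AZ2, and 522, 445, 458 and 446 with DMSO. No ARM165 library overlapped the others in either line, and the log2 change was 1.90 ± 0.050 in MOLM14 (SE, adjusted p = 1.16e-13) and 3.59 ± 0.080 in OCI-AML2 (adjusted p = 1.27e-14), the member with the smallest adjusted p in each line.

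STAT2, a subunit of the complex that binds the ISRE, had 10589, 9933, 10051 and 8859 in MOLM14 with ARM165, 2399.6 to 3199 with AZ2, and 3219, 2506, 2386 and 2943 with DMSO. In OCI-AML2, STAT2 had 10139, 10132, 9172 and 9046 with ARM165, 2619.8 to 3497 with AZ2, and 3071, 2898, 3343 and 3982 with DMSO. The ARM165 libraries stood clear of all others, with log2 changes of 1.84 ± 0.10 in MOLM14 (adjusted p = 1.79e-10) and 1.54 ± 0.10 in OCI-AML2 (adjusted p = 1.29e-09). IRF9, the DNA-binding subunit of that complex, had 361, 368, 411 and 441 in MOLM14 with ARM165, 94.1 to 142 with AZ2, and 126, 77.8, 97.4 and 106 with DMSO. In OCI-AML2, IRF9 had 627, 811, 808 and 715 with ARM165, 267 to 296 with AZ2, and 282, 377, 340.1 and 309.6 with DMSO. The lowest ARM165 library was again above the highest of the other groups, with log2 changes of 1.96 ± 0.16 in MOLM14 (adjusted p = 3.22e-08) and 1.18 ± 0.11 in OCI-AML2 (adjusted p = 1.55e-07).

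IRF7, the factor that amplifies type I interferon production, had 76.3, 97.7, 128 and 144 in MOLM14 with ARM165, 47.8 to 82.8 with AZ2, and 15.4, 77.4, 66.2 and 43.3 with DMSO. The ARM165 and DMSO ranges overlapped by 1 library in MOLM14, and the change was 1.30 ± 0.40 (adjusted p = 0.00888), or 0.83 without DMSO replicate 1, the lowest library (adjusted p = 0.0181). In OCI-AML2 it had 385, 478, 595 and 656 with ARM165, 61.8 to 157 with AZ2, and 115, 104, 87.3 and 120.1 with DMSO, with no overlap and a change of 2.28 ± 0.25 (adjusted p = 8.73e-07).

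**Figure D2:**
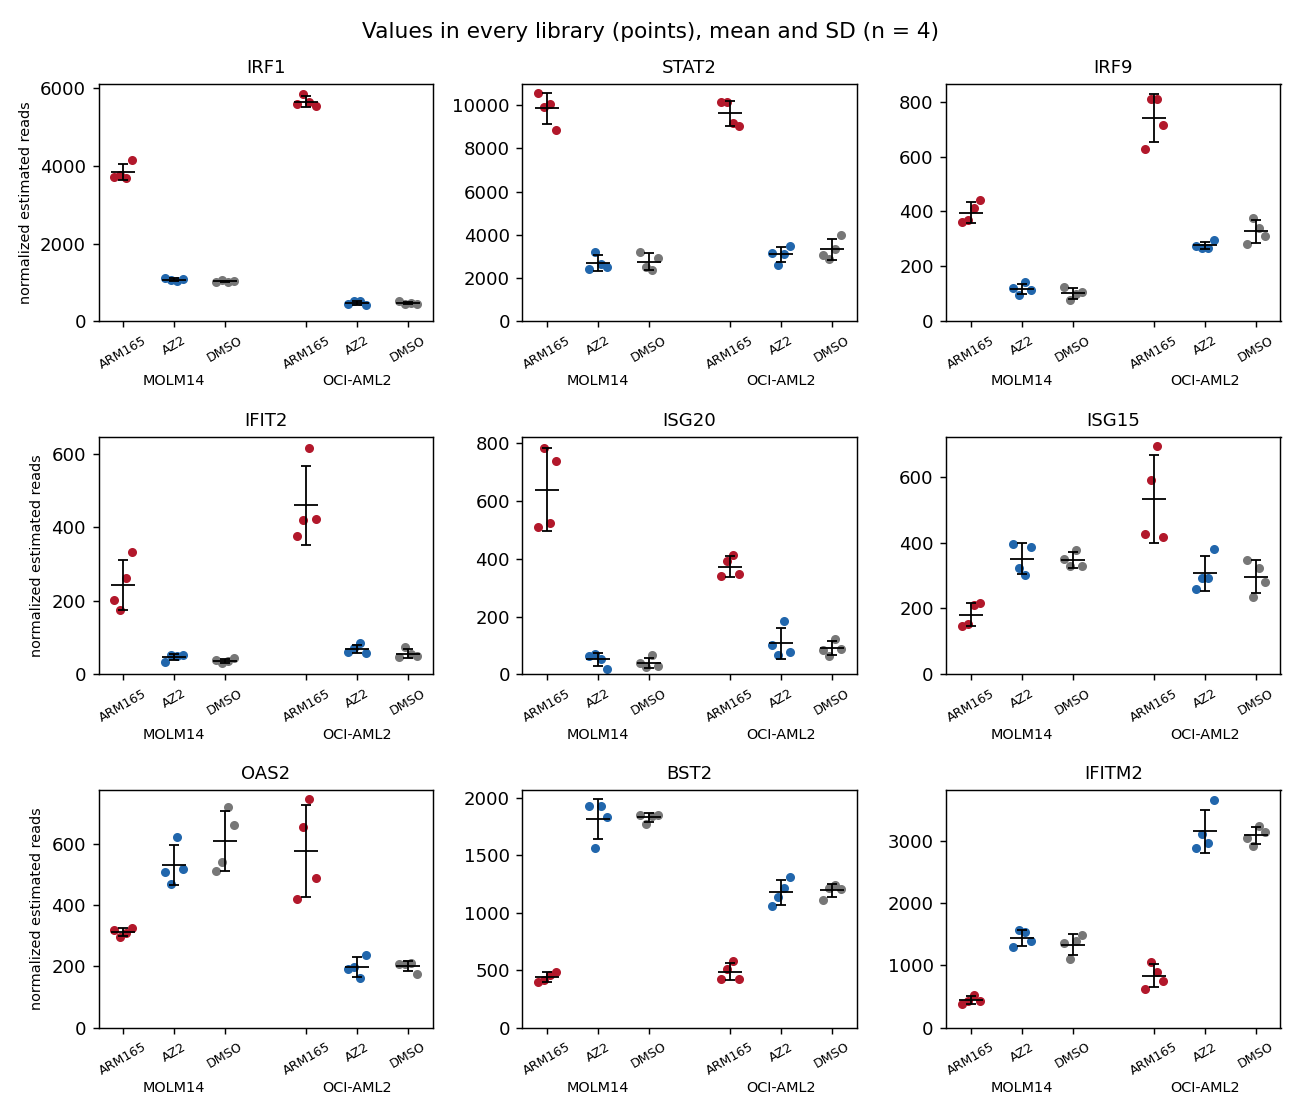
Normalized estimated reads of 9 members in every library (vertical axis from 0, points; black dashes and bars are mean and SD, n = 4) with ARM165 (red), AZ2 (blue) and DMSO (grey), MOLM14 on the left and OCI-AML2 on the right of each panel. IRF1, STAT2, IRF9, IFIT2 and ISG20 are higher with ARM165 in both lines, BST2 and IFITM2 are lower in both, and ISG15 and OAS2 are lower in MOLM14 and higher in OCI-AML2.

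The sensors of viral nucleic acid did not move as a group. IFIH1, which encodes the long double-stranded RNA sensor MDA5, rose in both lines, by 0.95 ± 0.10 in MOLM14 (1122 to 1552 with ARM165, 608 to 664 with DMSO, adjusted p = 7.16e-07) and by 0.38 ± 0.13 in OCI-AML2 (455 to 691 with ARM165, 399.5 to 456 with DMSO, adjusted p = 0.0172). In OCI-AML2 the IFIH1 ranges overlapped at 1 library, and without ARM165 replicate 3 the change was 0.28 (adjusted p = 0.0694). EIF2AK2, the double-stranded RNA-activated kinase PKR that blocks translation, rose to 532, 585, 658 and 677 with ARM165 in OCI-AML2, against 311, 287, 257 and 251 with DMSO. Its ranges did not overlap in either line, with log2 changes of 0.78 ± 0.081 in MOLM14 (adjusted p = 4.22e-07) and 1.14 ± 0.11 in OCI-AML2 (adjusted p = 2.6e-07).

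DDX58, the gene of the RNA sensor RIG-I, moved in opposite directions. In MOLM14 it had 1498, 1372, 1400.5 and 1515 with ARM165, 1682 to 2087 with AZ2, and 2099, 1974, 2024 and 2109 with DMSO. In OCI-AML2 it had 846, 888, 1079 and 1082 with ARM165, 421 to 520.4 with AZ2, and 451, 599, 490.4 and 537 with DMSO. Every ARM165 library lay below the others in MOLM14 and above them in OCI-AML2, with changes of -0.50 ± 0.065 (adjusted p = 4.2e-06; -0.31 when libraries were scaled to equal totals) and 0.90 ± 0.11 (adjusted p = 3.54e-06). ZBP1, a sensor of Z-form nucleic acid, had 21.9, 101, 141 and 57.5 with ARM165 in OCI-AML2, 54.2 to 157 with AZ2, and 183, 129, 147 and 196 with DMSO. The ARM165 and DMSO groups of ZBP1 overlapped, its change of -1.29 ± 0.46 (adjusted p = 0.0219) was -0.78 without ARM165 replicate 1 (adjusted p = 0.0715) and -1.20 without DMSO replicate 4 (adjusted p = 0.0556), and in MOLM14 it was 0.35 ± 0.34 (adjusted p = 0.372).

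The OAS genes encode enzymes, and in OASL an enzyme-like protein, that respond to double-stranded RNA, in the case of the enzymes by activating RNase L. All 4 rose in OCI-AML2, by 1.49 to 2.66. OAS1 had 135, 265, 342 and 199 with ARM165 in OCI-AML2, 38.1 to 67.7 with AZ2, and 40.5, 34.0, 32.4 and 46.4 with DMSO. OASL had 209, 298, 417 and 230.1 with ARM165, 33.9 to 58.4 with AZ2, and 56.9, 42.5, 44.4 and 31.7 with DMSO. OAS3 had 68.2, 95.1, 108 and 67.6 with ARM165, 9.80 to 21.7 with AZ2, and 18.0, 16.8, 10.4 and 9.31 with DMSO. None of these ARM165 groups overlapped the other groups, and the log2 changes were 2.52 ± 0.28 for OAS1 (adjusted p = 8.8e-07), 2.66 ± 0.26 for OASL (adjusted p = 2.47e-07) and 2.57 ± 0.35 for OAS3 (adjusted p = 8.02e-06).

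OAS2 went up in OCI-AML2 and down in MOLM14. In MOLM14 it had 320.3, 297, 310.2 and 326 with ARM165, 472 to 625 with AZ2, and 513, 544, 721 and 664 with DMSO. In OCI-AML2 it had 421, 657, 749 and 489 with ARM165, 163 to 239 with AZ2, and 207, 208, 212 and 176 with DMSO. The ARM165 libraries were apart from the others in both lines, with changes of -0.95 ± 0.11 (adjusted p = 2.16e-06) and 1.49 ± 0.17 (adjusted p = 1.29e-06). The other OAS genes in MOLM14 were a rise of OAS3 (26.9 to 99.7 with ARM165, 11.8 to 17.1 with DMSO, 1.45 ± 0.43, adjusted p = 0.0072), and OAS1 and OASL, which did not pass (95% intervals -0.26 to 0.56 and 0.068 to 1.84). OASL had low values in MOLM14, and passed without ARM165 replicate 2 (1.12, adjusted p = 0.039) and without DMSO replicate 4 (1.33, adjusted p = 0.00709).

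The IFIT proteins bind viral RNA ends or the translation machinery, and 4 of 4 rose in OCI-AML2, by 2.11 to 3.00. IFIT2 had 378, 421, 617 and 424 with ARM165 in OCI-AML2, 58.8 to 84.4 with AZ2, and 47.3, 73.7, 54.5 and 49.8 with DMSO. IFIT3, whose promoter is printed above, had 290.4, 362, 567 and 322 with ARM165, 72.7 to 76.7 with AZ2, and 92.4, 77.5, 76.3 and 96.8 with DMSO. For both genes the lowest ARM165 library was well above every other library of the line, with changes of 3.00 ± 0.20 (adjusted p = 2.29e-09) and 2.11 ± 0.19 (adjusted p = 7.92e-08). IFIT1 had 246, 265, 367 and 300.5 with ARM165, 67.8 to 86.2 with AZ2, and 78.5, 64.0, 57.4 and 68.6 with DMSO. IFIT5 had 266, 381, 467 and 290.5 with ARM165, 33.9 to 103 with AZ2, and 54.4, 84.6, 73.6 and 72.6 with DMSO. Neither overlapped, and the changes were 2.11 ± 0.17 (adjusted p = 2.35e-08) and 2.27 ± 0.29 (adjusted p = 4.56e-06).

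In MOLM14, IFIT2 had 204, 176, 261 and 332 with ARM165, 34.7 to 53.3 with AZ2, and 39.9, 31.5, 35.2 and 43.6 with DMSO. IFIT3 had 66.5, 93.0, 98.5 and 127 with ARM165, 48.9 to 66.2 with AZ2, and 56.0, 32.3, 17.7 and 51.8 with DMSO. Both groups of ARM165 libraries lay above the DMSO ones, with changes of 2.63 ± 0.23 for IFIT2 (adjusted p = 4.62e-08) and 1.36 ± 0.32 for IFIT3 (adjusted p = 0.00153). IFIT5 rose by 0.55 ± 0.10 (adjusted p = 0.000106), and IFIT1 had a 95% interval of 0.013 to 0.90 (adjusted p = 0.0626), passing without ARM165 replicate 1 (0.56, adjusted p = 0.0365).

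The dynamin-like GTPases MX1 and MX2, which bind viral nucleoproteins or capsids, lie next to each other on chromosome 21 and moved apart in OCI-AML2. MX2 had 262, 296, 288 and 228 with ARM165, 91.2 to 193 with AZ2, and 91.7, 170.5, 127 and 147 with DMSO, without overlap to either (change 1.03 ± 0.22, adjusted p = 0.000801). MX1, often used as a marker of type I interferon, had 143 to 229.6 with ARM165 and 199 to 370.4 with DMSO in OCI-AML2, ranges that overlapped, and its change of -0.51 ± 0.18 was called lower (adjusted p = 0.0242). That call did not hold without ARM165 replicate 1 (-0.36, adjusted p = 0.0898) or DMSO replicate 3 (-0.37, adjusted p = 0.0915). In MOLM14 neither passed, with 95% intervals of -0.60 to 0.12 for MX1 and -0.014 to 0.97 for MX2.

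The membrane restriction factors included the clearest falls. BST2, or tetherin, which holds budding virus at the cell surface, had 399, 413, 461 and 485 in MOLM14 with ARM165, 1559 to 1930.4 with AZ2, and 1848, 1771, 1845 and 1852 with DMSO. In OCI-AML2, BST2 had 427, 511, 579 and 422 with ARM165, 1059 to 1306 with AZ2, and 1113, 1212, 1242 and 1206 with DMSO. The highest ARM165 library was far below the lowest of the other groups in both lines, with changes of -2.06 ± 0.078 in MOLM14 (adjusted p = 4.21e-12) and -1.31 ± 0.10 in OCI-AML2 (adjusted p = 1.43e-08). IFITM2, a protein of endosomal membranes that hinders virus fusion, had 386, 434, 523 and 426 in MOLM14 with ARM165, 1291 to 1561 with AZ2, and 1355, 1097, 1385 and 1489 with DMSO. In OCI-AML2, IFITM2 had 624, 1051, 892 and 747 with ARM165, 2885 to 3651 with AZ2, and 3048, 2919, 3232 and 3136 with DMSO. It fell without overlap in both lines, with changes of -1.59 ± 0.11 (adjusted p = 2.19e-09) and -1.92 ± 0.12 (adjusted p = 1.76e-09).

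The neighbours of IFITM2 did not follow it in OCI-AML2. IFITM3, also endosomal, had 82.8, 140.2, 214 and 107 with ARM165 in OCI-AML2, 7.71 to 17.9 with AZ2, and 23.9, 39.3, 14.6 and 35.5 with DMSO, and rose by 2.23 ± 0.39 (adjusted p = 9.92e-05). IFITM1, found mainly at the cell surface, ranged widely there, with 9.98 to 87.9 with ARM165 and 2.42 to 159.5 with DMSO, and did not pass (95% interval -2.04 to 3.16). In MOLM14 IFITM1 had 47.8, 45.9, 76.5 and 77.4 with ARM165, 121 to 234 with AZ2, and 131, 109, 160.4 and 97.0 with DMSO, a fall without overlap (change -1.01 ± 0.24, adjusted p = 0.00166), and IFITM3 did not pass (95% interval -0.40 to 1.33). The 3 IFITM genes are closely alike in sequence, so reads may have been split between them in estimation and their single values are uncertain. Sequence is also shared, to a lesser degree, within the OAS, IFIT, MX, HERC and SAMD9 groups.

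The genes of ISG15 conjugation, in which the ubiquitin-like ISG15 is attached to new proteins, differed within each line. ISG15 had 147, 154, 209.6 and 216 in MOLM14 with ARM165, 301 to 396 with AZ2, and 349, 329, 379 and 328 with DMSO. In OCI-AML2, ISG15 had 427, 590.2, 694 and 417 with ARM165, 261 to 381 with AZ2, and 348, 236, 323 and 279 with DMSO. The ARM165 libraries were all below the others in MOLM14 and all above them in OCI-AML2, with changes of -0.95 ± 0.14 (adjusted p = 2.17e-05) and 0.82 ± 0.18 (adjusted p = 0.000691). TRIM25, an E3 ligase that acts on RIG-I and can conjugate ISG15, had 3731, 3768, 3401 and 3559 with ARM165 in OCI-AML2, 814 to 966 with AZ2, and 879, 892, 942 and 848 with DMSO. It rose without overlap in both lines, by 2.02 ± 0.071 in OCI-AML2 (adjusted p = 1.93e-12) and by 0.37 ± 0.082 in MOLM14 (adjusted p = 0.000954; 0.56 at equal totals).

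HERC5, the main ligase of ISG15 in human cells, had 378, 398, 432 and 454 in MOLM14 with ARM165, 796 to 1057 with AZ2, and 921, 928, 915 and 917 with DMSO. Its ARM165 libraries were all below the others (change -1.15 ± 0.088, adjusted p = 1.08e-08), and in OCI-AML2 it fell less, with 685 to 1186 with ARM165 and 1121 to 1247 with DMSO, ranges that overlapped (change -0.41 ± 0.12, adjusted p = 0.00766). HERC6 is the adjacent gene on chromosome 4 and its product is a related ligase. It had 277, 256, 294 and 407 with ARM165 in MOLM14, 86.3 to 111 with AZ2, and 135, 77.3, 98.2 and 106 with DMSO. In OCI-AML2, HERC6 had 281, 275, 258 and 232 with ARM165, 67.2 to 104 with AZ2, and 89.2, 101, 94.5 and 81.7 with DMSO. It rose without overlap by 1.56 ± 0.19 in MOLM14 (adjusted p = 1.9e-06) and by 1.50 ± 0.16 in OCI-AML2 (adjusted p = 7.62e-07). USP18, the protease that removes ISG15 and dampens type I interferon receptor signalling, fell in MOLM14 (change -0.51 ± 0.11, adjusted p = 0.0005; -0.32 at equal totals). In OCI-AML2 its change was -0.38 ± 0.18 (adjusted p = 0.0742), and it passed without ARM165 replicate 3 (-0.54, adjusted p = 0.0117) or DMSO replicate 4 (-0.48, adjusted p = 0.0366).

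**Figure D3:**
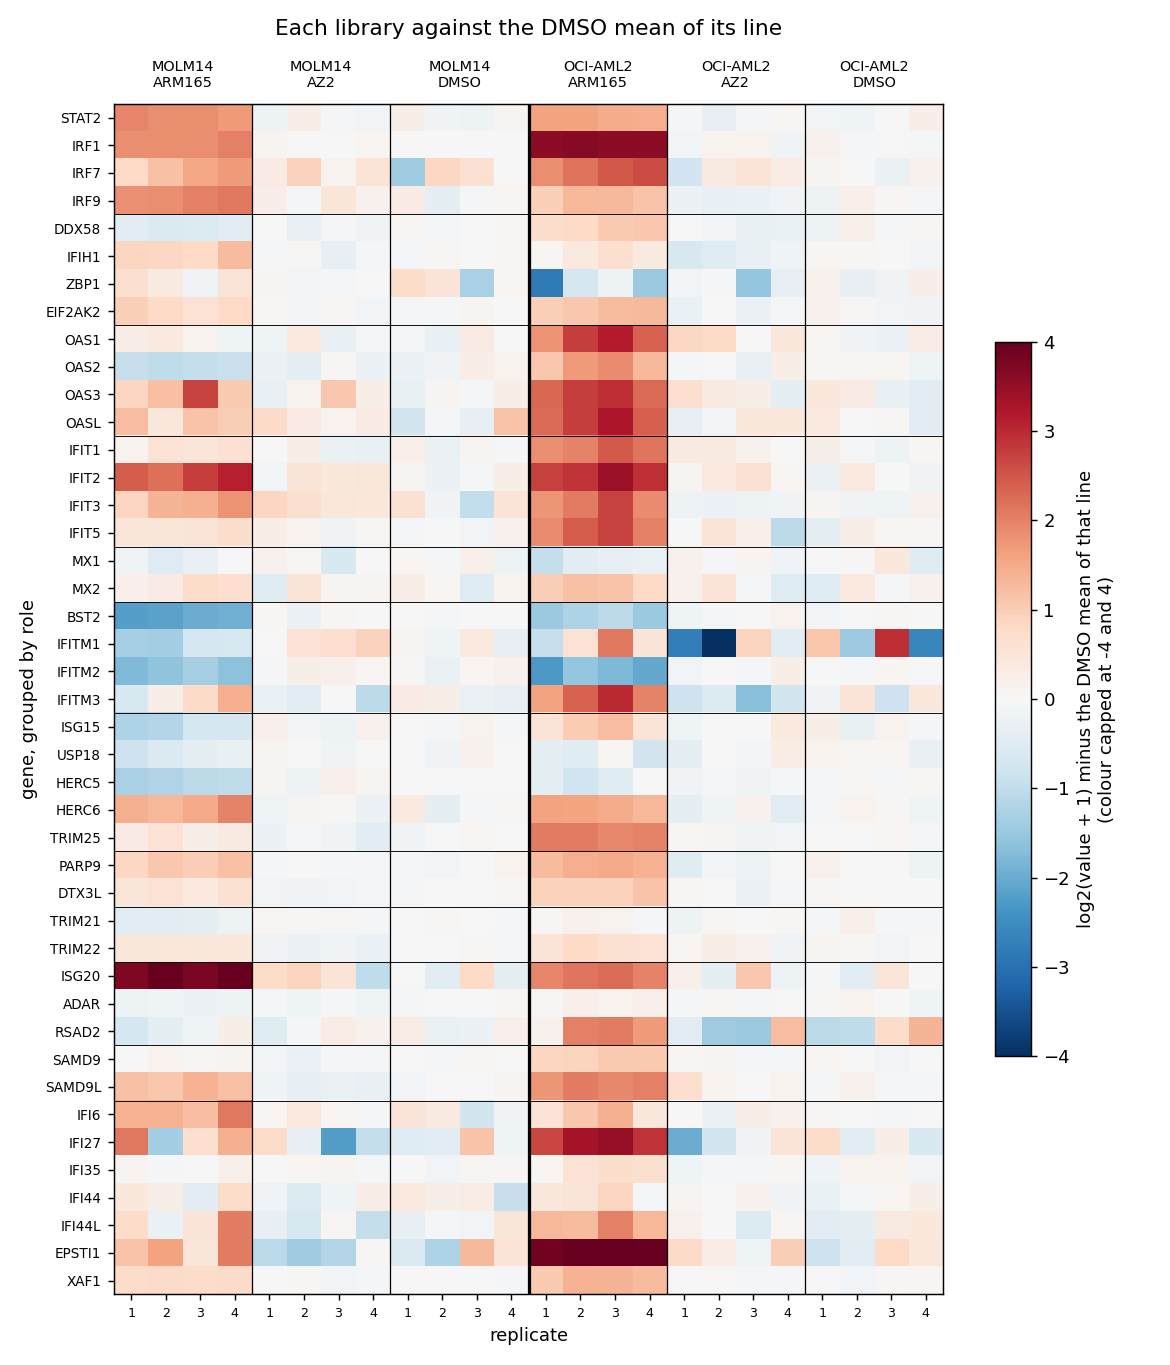
Difference of log2(value + 1) from the DMSO mean of the same line for each member (down the page, by role) in each of the 24 libraries (across), red above and blue below that mean, with colours capped at -4 and 4. The ARM165 columns of OCI-AML2 are red for most members, those of MOLM14 are red for fewer and blue for ISG15, OAS2, BST2, IFITM1, IFITM2 and HERC5, and the AZ2 columns are pale for most members, with scattered colour in genes of low value.

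PARP9 and DTX3L encode an ADP-ribosyltransferase and the E3 ligase it pairs with, and the genes lie head to head on chromosome 3. PARP9 had 1360.4, 1619, 1524 and 1746 in MOLM14 with ARM165, 723 to 765 with AZ2, and 735, 718, 777 and 845 with DMSO. In OCI-AML2, PARP9 had 2003, 2297, 2401 and 2163 with ARM165, 588 to 846 with AZ2, and 942, 841, 838 and 716 with DMSO. Both genes rose without overlap in both lines, PARP9 by 1.02 ± 0.077 in MOLM14 (adjusted p = 9.85e-09) and 1.41 ± 0.11 in OCI-AML2 (adjusted p = 1.26e-08). DTX3L rose by 0.52 ± 0.049 in MOLM14 (adjusted p = 1.46e-07) and 0.97 ± 0.072 in OCI-AML2 (adjusted p = 8.43e-09). Of the other TRIM genes, TRIM22, a nuclear antiviral ligase, rose by 0.43 ± 0.043 and 0.61 ± 0.095 (adjusted p = 2.23e-07 in MOLM14 and 3.22e-05 in OCI-AML2). TRIM21, a cytosolic antibody receptor, fell in MOLM14 (change -0.37 ± 0.064, adjusted p = 9.18e-05; -0.18 at equal totals) and did not pass in OCI-AML2 (95% interval -0.092 to 0.25).

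ISG20, a 3′ to 5′ exonuclease, had the largest rise of any member tested in MOLM14. It had 509, 783, 524 and 739 there with ARM165, 18.1 to 70.0 with AZ2, and 38.1, 26.95, 65.4 and 29.3 with DMSO. In OCI-AML2, ISG20 had 341, 391, 413 and 346 with ARM165, 67.2 to 186 with AZ2, and 85.2, 64.5, 122 and 88.1 with DMSO. No ARM165 library came near the others, and the changes were 4.03 ± 0.37 in MOLM14 (adjusted p = 1.02e-07) and 2.07 ± 0.27 in OCI-AML2 (adjusted p = 5.15e-06). ADAR, which edits adenosine to inosine in double-stranded RNA, had 27770.1, 28199.7, 26998 and 27403 in MOLM14 with ARM165, 28414 to 30040.0 with AZ2, and 30394, 32053, 31999.6 and 32578 with DMSO. In OCI-AML2, ADAR had 13512, 15119, 14432 and 14835 with ARM165, 12319.8 to 13367 with AZ2, and 13474, 14332, 12778 and 11607 with DMSO. Its changes were small and turned with the scaling: -0.20 ± 0.038 in MOLM14 (adjusted p = 0.000197) became 0.14 after quantile normalization and did not pass at equal totals. The rise of 0.15 ± 0.062 in OCI-AML2 (adjusted p = 0.0423) did not pass without any 1 of ARM165 replicates 2, 3 and 4 or of DMSO replicates 3 and 4 (0.10 to 0.15). RSAD2, the gene of viperin, had 16.5 to 33.2 with ARM165 and 23.0 to 34.1 with DMSO in MOLM14 and did not pass (95% interval -0.91 to 0.42), and in OCI-AML2, where it was untested, it had 3.47 to 15.5 with ARM165 and 0.873 to 9.03 with DMSO.

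SAMD9 and SAMD9L, neighbours on chromosome 7 whose products restrain translation, both rose in OCI-AML2. SAMD9L had 512, 619.8, 572 and 613 with ARM165 in OCI-AML2, 149.7 to 239 with AZ2, and 147, 170.1, 145 and 141 with DMSO. In MOLM14 it had 409.7, 385, 473 and 406 with ARM165, 144 to 159.6 with AZ2, and 166, 178, 185 and 197 with DMSO. The ARM165 groups were clear of the others, with changes of 1.20 ± 0.11 in MOLM14 (adjusted p = 6.11e-08) and 1.93 ± 0.14 in OCI-AML2 (adjusted p = 7.77e-09). SAMD9 rose by 0.96 ± 0.068 in OCI-AML2 (adjusted p = 4.82e-09), and in MOLM14 its 95% interval was -0.037 to 0.19.

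Of the 7 remaining members, 7 of 7 rose in OCI-AML2, EPSTI1 among them, and 2 of the 5 tested rose in MOLM14. EPSTI1, an interferon-induced gene first described in epithelial and stromal cell interaction, had 66.5, 79.0, 169 and 93.6 with ARM165 in OCI-AML2, 3.15 to 8.27 with AZ2, and 1.60, 2.50, 7.11 and 5.42 with DMSO. IFI27, a mitochondrial protein gene widely used in interferon signatures, had 272, 429, 480.5 and 317 with ARM165, 9.81 to 60.1 with AZ2, and 70.1, 31.2, 50.7 and 27.1 with DMSO. IFI44L had 52.9, 50.6, 87.2 and 53.3 with ARM165, 13.9 to 23.3 with AZ2, and 15.0, 15.9, 26.5 and 28.2 with DMSO. The ARM165 libraries of the 3 lay above all others. The 8 AZ2 and DMSO libraries of EPSTI1 were under the filter's value of 10, so its change of 4.37 is given as a description, and it was 4.55 with a pseudocount of 0.5 and 3.50 with one of 5. The changes were 3.10 ± 0.44 for IFI27 (adjusted p = 1.36e-05) and 1.48 ± 0.33 for IFI44L (adjusted p = 0.000856). These genes were low in MOLM14, where IFI27 reached 21.9 and IFI44L 10.7 in the highest library, and EPSTI1 (6.68 to 21.5 with ARM165, 1.31 to 12.4 with DMSO) did not pass (change 1.32, 95% interval -0.16 to 2.79; 0.84 with a pseudocount of 5). Without DMSO replicate 3 the EPSTI1 change in MOLM14 was 1.75.

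XAF1, a pro-apoptotic antagonist of XIAP, had 664, 834, 817 and 773 with ARM165 in OCI-AML2, 308 to 320.1 with AZ2, and 316, 295, 333 and 336 with DMSO. It rose without overlap in both lines, by 0.75 ± 0.051 in MOLM14 (adjusted p = 3.09e-09) and 1.26 ± 0.092 in OCI-AML2 (adjusted p = 6.61e-09). IFI6, an endoplasmic reticulum and mitochondrial protein gene, had 70.6, 70.3, 63.0 and 116 with ARM165 in MOLM14, 25.5 to 34.5 with AZ2, and 37.9, 34.0, 15.5 and 23.7 with DMSO. It too rose in both lines, by 1.53 ± 0.30 in MOLM14 (adjusted p = 0.000346) and 0.88 ± 0.17 in OCI-AML2 (adjusted p = 0.000327). IFI35 rose by 0.50 ± 0.14 (adjusted p = 0.00546) and IFI44 by 0.44 ± 0.17 (adjusted p = 0.0328) in OCI-AML2, and neither passed in MOLM14 (95% intervals -0.14 to 0.25 and -0.71 to 1.19). The IFI44 call in OCI-AML2 was lost without any 1 of ARM165 replicates 1, 2 and 3 or of DMSO replicates 1 and 2 (0.30 to 0.45).

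The design also allows the response to be compared between the lines. Across both, 19 members rose in both lines, 3 fell in both (BST2, IFITM2 and HERC5), and 4 fell in MOLM14 and rose in OCI-AML2 (ISG15, OAS2, DDX58 and ADAR, the last with a direction in MOLM14 that turned after quantile normalization). Of the 14287 genes tested in both lines, 26.8% rose in both, 24.6% fell in both and 4.45% moved in opposite directions. A further 9 members rose in OCI-AML2 and did not pass in MOLM14, 2 rose in OCI-AML2 and were not tested in MOLM14, and 2 fell in OCI-AML2 and did not pass in MOLM14 (MX1 and ZBP1). In MOLM14 3 more fell and did not pass in OCI-AML2 (IFITM1, USP18 and TRIM21).

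The difference itself, the ARM165 change in MOLM14 minus that in OCI-AML2, was tested in 1 fit of all 24 libraries. It was called for 26 of 40 members, with 4 higher in MOLM14 (10%) and 22 lower (55%). Of all genes, 42.4% were called, 18.1% higher and 24.3% lower, and the median difference was -0.53 over the members and -0.04 over all genes. Without EPSTI1, whose gap (-3.05, or -2.66 with a pseudocount of 5) rests on values under the filter, the counts were 4 higher and 21 lower of 39, with a median of -0.52. OAS2 (-2.44 ± 0.21, adjusted p = 2.77e-09) and OAS1 (-2.37 ± 0.35, adjusted p = 5.99e-06) had wide gaps. ISG15 (-1.77 ± 0.24, adjusted p = 1.89e-06), IRF1 (-1.70 ± 0.091, adjusted p = 5.43e-13) and TRIM25 (-1.65 ± 0.11, adjusted p = 2.9e-11) were also lower in MOLM14. The 4 members with a higher change in MOLM14 were ISG20 (1.96 ± 0.50, adjusted p = 0.00256), ZBP1 (1.64 ± 0.62, adjusted p = 0.0371), IRF9 (0.79 ± 0.20, adjusted p = 0.00231) and IFIH1 (0.57 ± 0.17, adjusted p = 0.00924). STAT2 was not called (0.30 ± 0.15, 95% interval -0.010 to 0.61), though it passed at equal totals (0.46) and without DMSO replicate 1 of MOLM14 (0.38, adjusted p = 0.0465). IFIT2 was not called either (-0.37 ± 0.30, 95% interval -0.995 to 0.26). IFITM2 was not called (0.33 ± 0.18, 95% interval -0.029 to 0.70), though it passed at equal totals (0.49) and without ARM165 replicate 2 of OCI-AML2 (0.46, adjusted p = 0.0255). The ZBP1 difference did not pass without ARM165 replicate 1, 2 or 4 or DMSO replicate 3 of MOLM14, nor without ARM165 replicate 1 or 4 or DMSO replicate 1 or 4 of OCI-AML2 (1.13 to 1.63). With equal totals the median of all genes in this comparison moved by 0.16 to 0.11, 61.6% of called genes were higher in place of 42.7%, and the members stood at 6 higher and 19 lower.

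**Figure D4:**
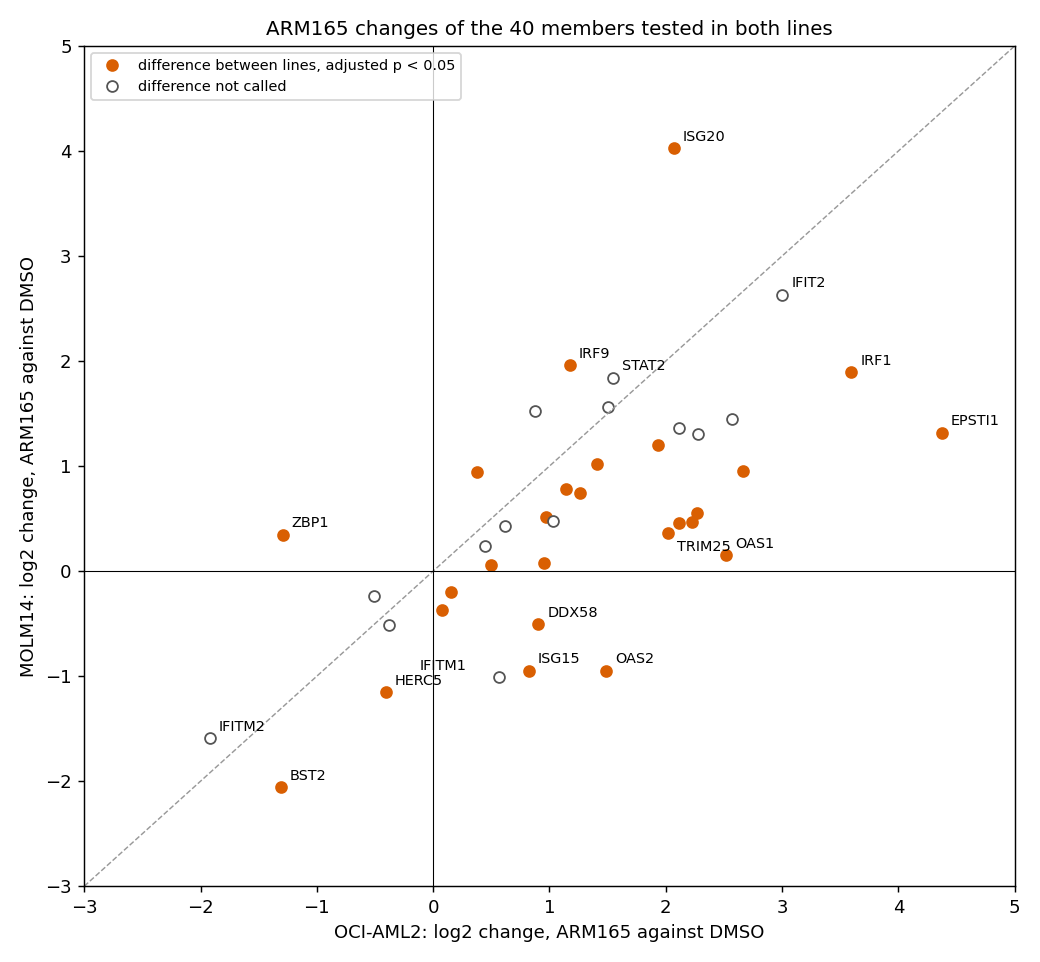
ARM165 change against DMSO (log2) of the 40 members tested in both lines, with OCI-AML2 on the horizontal and MOLM14 on the vertical axis, filled orange where the difference between lines passed the test and open where it did not. The dashed line marks equal change. The 22 members called lower in MOLM14 lie below that line, 4 have a called fall in MOLM14 with a called rise in OCI-AML2 (1 of them, ADAR, turned direction in MOLM14 after quantile normalization), and ISG20 stands above it.

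AZ2 did not move these genes past the threshold. In MOLM14, 0 of 41 members were called (background 0% of 15288 genes), and in OCI-AML2 0 of 42 (background 0.111%, or 17 genes, with 0.0065% higher and 0.104% lower). At an unadjusted p under 0.05 there were 7 of 41 members in MOLM14 (899 of all genes, 5.88%) and 2 of 42 in OCI-AML2 (733 of all genes, 4.77%), and no other tool was run. In MOLM14, 6 of the 7 had a 95% interval below 0 and 1 had it above 0, and the 2 in OCI-AML2 were below 0. How all genes divided by direction at that p was not computed. The smallest adjusted p was that of TRIM22 in MOLM14 (-0.20 ± 0.043, adjusted p = 0.419) and of IFIH1 in OCI-AML2 (-0.40 ± 0.13, adjusted p = 0.737). A p that misses the threshold does not show that AZ2 left them alike, and the intervals give what the data allow: for 32 of 41 members in MOLM14 and 36 of 42 in OCI-AML2 the 95% interval of the change lay within -1 to 1. In MOLM14 every AZ2 library lay below every DMSO library for TRIM22, DTX3L (-0.11), SAMD9L (-0.27) and ADAR (-0.12), and in OCI-AML2 for IFIH1. That is 4 of 41 members in MOLM14, against 2.61% of all genes, and 1 of 42 in OCI-AML2, against 1.48%, and none passed the test. For STAT2 the interval was -0.25 to 0.18 in MOLM14 and -0.31 to 0.11 in OCI-AML2, and for IRF1 -0.047 to 0.17 and -0.16 to 0.18. The difference of the AZ2 response between lines was called for 0 of 40 members (background 0.028%), with 3 at an unadjusted p under 0.05.

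ARM165 was also compared with AZ2, at doses that are not known to match. In MOLM14, 21 members were higher with ARM165 than with AZ2 and 9 lower (73.2% called, background 70.1%, with 36.1% higher and 34% lower). In OCI-AML2, 34 were higher and 4 lower (90.5% called, background 65.8%, with 34.5% higher and 31.4% lower). The higher counts of both lines include EPSTI1, which in OCI-AML2 reached the filter only through its ARM165 libraries and so was bound to be higher in them. In MOLM14 it reached the filter through ARM165 libraries and 1 DMSO library, and no AZ2 library. Its change against AZ2 was 2.22 in MOLM14 and 3.90 in OCI-AML2, or 1.34 and 3.25 with a pseudocount of 5. The AZ2 change and the ARM165 change against AZ2 share the AZ2 libraries, as the ARM165 change against DMSO and the AZ2 change share the DMSO ones. In OCI-AML2 the members' median was 1.46 against AZ2, with IRF1 at 3.59 ± 0.080 (adjusted p = 1.4e-14). In MOLM14 the median was 0.56, with ISG20 at 3.74 ± 0.37 (adjusted p = 2.31e-07) and BST2 at -2.04 ± 0.078 (adjusted p = 4.29e-12). The calls differed from those against DMSO for ADAR, EPSTI1, IFIT1, IRF7 and SAMD9 in MOLM14 and for ZBP1 in OCI-AML2, and those differences were not tested.

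The interferons themselves were not detectable above the filter in either line at this depth. Of 21 interferon genes of types I, II and III in the tables, 0 reached 10 in at least 4 libraries, and the highest value in any library was 13.0 in MOLM14 and 11.9 in OCI-AML2. Of their 252 library values in each line, 227 in MOLM14 and 216 in OCI-AML2 were listed at 0. IFNB1, the interferon beta gene, had 5.66, 0, 0 and 0 in MOLM14 with ARM165 and 0 in every DMSO library. In OCI-AML2 it had 4.50, 1.55, 4.95 and 3.05 with ARM165, 0, 4.48, 0 and 9.03 with AZ2, and 0, 0, 0 and 3.40 with DMSO.

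Upstream of the members, the kinase gene JAK1, which serves all 3 interferon receptor types, had 1970.0, 2031, 1896 and 2134 with ARM165 in MOLM14 and 736, 781, 776 and 797 with DMSO. In OCI-AML2, JAK1 had 1176, 1238, 1146 and 1285 with ARM165 and 453, 492, 412 and 392 with DMSO. It rose without overlap by 1.38 ± 0.055 in MOLM14 (adjusted p = 7.43e-12) and 1.47 ± 0.087 in OCI-AML2 (adjusted p = 6.2e-10). Of the receptor and Janus kinase genes, 4 of 8 tested rose and 1 fell in MOLM14, and 5 of 9 rose and 2 fell in OCI-AML2, against backgrounds of 35.5% higher and 34% lower in MOLM14 and 34.2% higher and 31.6% lower in OCI-AML2. Lists of this length give only a coarse share. The type I receptor subunit IFNAR1 rose by 0.31 ± 0.076 in MOLM14 (0.50 at equal totals) and 0.57 ± 0.073 in OCI-AML2. Its partner IFNAR2 was lower in OCI-AML2 (-0.49 ± 0.089, adjusted p = 0.000172) and in MOLM14 (-0.23 ± 0.077, adjusted p = 0.0159), where the call was lost at equal totals (-0.038) and without ARM165 replicate 1 (-0.19, adjusted p = 0.0556) or DMSO replicate 3 (-0.20, adjusted p = 0.0526). IFNLR1, the specific subunit of the type III receptor, had 272, 271, 250.5 and 243 with ARM165 in OCI-AML2, 10.7 to 19.3 with AZ2, and 28.3, 19.1, 7.67 and 26.8 with DMSO. It rose by 3.74 ± 0.35 there (adjusted p = 1.37e-07) and was too low to be tested in MOLM14.

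Of the genes that lead to interferon production, 6 of 19 rose and 11 fell in MOLM14, and 6 of 18 rose and 8 fell in OCI-AML2. As shares, 31.6% rose and 57.9% fell in MOLM14 (background 35.5% and 34%), and 33.3% rose and 44.4% fell in OCI-AML2 (background 34.2% and 31.6%), so the rises lay near the background. The adaptor genes TRAF6 (1.87 ± 0.10 and 2.06 ± 0.12) and TICAM1 (1.21 ± 0.071 and 2.12 ± 0.11) rose in MOLM14 and OCI-AML2, and UNC93B1, needed to carry nucleic acid-sensing Toll-like receptors to endosomes, fell in both (-1.86 and -1.37). The kinase gene TBK1 rose in MOLM14 (1.01 ± 0.051, adjusted p = 9.69e-11) and IKBKE fell in OCI-AML2 (-1.73 ± 0.068, adjusted p = 5.43e-12). Of 14 negative regulators, 5 rose and 4 fell in MOLM14, and 7 rose and 3 fell in OCI-AML2, or 35.7% and 28.6% in MOLM14 and 50% and 21.4% in OCI-AML2 against the same backgrounds. Among them SOCS3 rose in MOLM14 (1.52 ± 0.11, adjusted p = 6.8e-09) and IRF2, a repressor that competes with IRF1, in OCI-AML2 (1.28 ± 0.10, adjusted p = 1.07e-08). SOCS1, an inhibitor of Janus kinases named here after its values were seen, had 234, 270.4, 216 and 222 with ARM165 and 349, 352, 359.9 and 305 with DMSO in MOLM14. In OCI-AML2, SOCS1 had 304, 398, 236 and 334 with ARM165 and 58.6, 55.8, 49.98 and 87.9 with DMSO. It fell in MOLM14 (-0.54 ± 0.12, or -0.35 at equal totals) and rose in OCI-AML2 (2.32 ± 0.28), and the difference of the changes passed (-2.86 ± 0.31, adjusted p = 7.14e-08).

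A second list of interferon-induced genes, was not among the 43. Of those tested, 19 of 49 rose and 18 fell in MOLM14 (median 0.06), and 25 of 48 rose and 16 fell in OCI-AML2 (median 0.31). In MOLM14 the shares of 38.8% higher and 36.7% lower lay near the background of 35.5% and 34%. In OCI-AML2 they were 52.1% higher and 33.3% lower, beside 34.2% and 31.6% of all genes. SLFN5, of the Schlafen family, rose by 5.46 ± 0.16 in MOLM14 (adjusted p = 3.74e-13) and 5.91 ± 0.21 in OCI-AML2 (adjusted p = 2.42e-12). TRIM38 rose by 1.77 ± 0.049 in MOLM14 and 1.34 ± 0.053 in OCI-AML2, and APOL6 by 2.48 ± 0.10 in OCI-AML2. LGALS9, the galectin-9 gene, fell in both (-2.12 and -2.18), and TRIM14 fell in MOLM14 (-1.92). RNF213, also listed, had no values in either line and so could not be analysed. MYD88 is on both this list and that of the genes that lead to interferon production.

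Members that are direct neighbours among protein-coding genes formed 11 pairs, in clusters on chromosomes 1, 3, 4, 7, 10, 11, 12 and 21. In MOLM14 with ARM165, both members rose in 2 pairs, both fell in 1, and they moved in opposite directions in 2, OAS3 with OAS2 and HERC6 with HERC5. In the other 6 pairs of MOLM14, 1 or both were not called. Among these was IFI44L with IFI44, where IFI44L was not tested, so the background below would leave that pair out. In OCI-AML2 both rose in 7 pairs, both fell in 0, and 2 were opposite, MX2 with MX1 and HERC6 with HERC5. In the other 2 pairs of OCI-AML2, 1 or both did not pass. Of all 10802 pairs of adjacent protein-coding genes with both genes tested in MOLM14, both rose in 15.9%, both fell in 15% and 22.7% were opposite, near the members' counts at this number of pairs. In OCI-AML2 the shares over 10773 pairs were 15.4%, 13.5% and 20.9%, and 34 of the 42 members tested there rose singly.

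The 4 ARM165 libraries of OCI-AML2 ranked unevenly over the members that rose. A difference in response and a difference between single libraries cannot be told apart here. Estimated reads were 37.5 M, 55.7 M, 43.7 M and 43.1 M in replicates 1 to 4. Replicate 3 was the highest library for 20 of the 34 members that rose, against 18.1% of all 5263 genes that rose in that line, and replicate 1 was the lowest for 24 of the 34, against 20.8%. In MOLM14, replicate 4 was the highest for 11 of the 19 members that rose, near the 49.3% of all 5427 genes that rose in that line. These libraries were not left out of the values above, and the number of members called stayed between 36 and 39 in OCI-AML2 and between 29 and 30 in MOLM14 when any 1 library was left out.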

How the data were processed

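Poly(A) RNA libraries were made with a stranded kit per the labels' protocols, and transcripts were quantified with kallisto per the submitters' processing notes. The kallisto version, genome build, annotation and scaling method are not given in the sources used here. Per the file headers, each deposited table gives normalized counts by gene symbol for 1 line. This signal, scaled by the authors, is not whole reads. The value of 1 read was inferred in each library as its commonest low value. Of the values above 0, divided by that value, 15.1% to 15.8% lay within 0.01 of a whole number, so no count model was used. Estimated reads per library, the total divided by the same inferred value, were 35.4 M to 59.0 M.

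Titles gave each library's group. For genes that reached 10 in 4 or more libraries of the line, log2(value + 1) was fitted with limma 3.58.1 (R 4.3.3), with 1 mean per group and a variance trend, over 12 libraries per line, or 24 for the difference between lines. P-values were Benjamini-Hochberg adjusted over all genes of a comparison, and intervals are 95% without adjustment. The fits were tested on simulated data. Alternatives covered pseudocount (0.5, 5), filter (none, 50), quantile scaling, equal totals, a replicate term, no trend, only the 2 groups compared and leaving out each library. Values in every library are given for members with a group mean of at least 50 and a called change of at least 1 in size or opposite calls in the lines, and always for ISG15, STAT2, IRF1, IRF7 and IRF9. Up to 4 called genes per pathway list and line, those of smallest adjusted p, are named. IFNB1, IFNAR2 and SOCS1 were added after their values were seen, and so were the alternatives for genes of the pathway lists. The members, role groups and pathway lists were chosen with earlier results of these data known. Promoters are from the RefSeq table of GRCh38.p14, gene order from GENCODE release 29. Figures were drawn with matplotlib 3.10.9.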

Additional observations from a re-analysis of the deposited data

Results flagged for a closer look

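The ARM165 response differed between the lines for 26 members, by the test of the difference itself (log2 change in MOLM14 minus that in OCI-AML2, limma adjusted p under 0.05). It was higher in MOLM14 for ISG20 (1.96), ZBP1 (1.64), IRF9 (0.79) and IFIH1 (0.57). It was lower in MOLM14 for EPSTI1 (-3.05, a gene that in OCI-AML2 reached the filter on low values only through its ARM165 libraries), OAS2 (-2.44), OAS1 (-2.37), ISG15 (-1.77), IFITM3 (-1.77), IFIT5 (-1.72), OASL (-1.71), IRF1 (-1.70), IFIT1 (-1.66), TRIM25 (-1.65) and DDX58 (-1.41). Smaller gaps in the same direction were those of SAMD9 (-0.88), BST2 (-0.75), HERC5 (-0.74), SAMD9L (-0.74), XAF1 (-0.52), DTX3L (-0.46), TRIM21 (-0.45), IFI35 (-0.44), PARP9 (-0.39), EIF2AK2 (-0.37) and ADAR (-0.36). For BST2 and HERC5 a lower difference means a deeper fall in MOLM14.

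In 7 of 147 groups of 4 libraries, 1 library stood far from the other 3, and about 1 in 20 groups does so by chance. With ARM165 in MOLM14 these were the highest libraries of IRF1 (4138) and IFI6 (116). The lowest AZ2 library of IFIT2 (34.7) and the lowest DMSO library of BST2 (1771) were the others in MOLM14. In OCI-AML2 they were the highest ARM165 library of IFI44L (87.2), the highest DMSO library of IRF1 (522) and the lowest DMSO library of OAS2 (176).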

How the results depend on the processing

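The counts of members called stayed within 1.5 times of those reported under every alternative that was run. For ARM165 against DMSO they were 28 to 33 in MOLM14 and 35 to 39 in OCI-AML2, for ARM165 against AZ2 27 to 35 and 36 to 39, and for the difference between lines 23 to 26. Leaving out 1 library gave 29 to 30 and 36 to 39 against DMSO, 27 to 31 and 35 to 38 against AZ2, and 22 to 28 for the difference. AZ2 against DMSO and its difference between lines gave 0 throughout. ADAR changed direction in MOLM14: against DMSO it was 0.14 after quantile normalization (adjusted p = 0.00481), and against AZ2 it was 0.31 after quantile normalization and 0.13 at equal totals. No other member had a call under any alternative with the direction turned. In the difference between lines, EIF2AK2, IFI35 and ZBP1 each lost the call in 10 of 32 alternatives, PARP9 in 5 and ADAR in 1 (quantile normalization, -0.077), and the cause was not tested. Without 1 library the lost values were -0.33 to -0.29 for EIF2AK2, -0.43 to -0.37 for IFI35 and -0.35 to -0.32 for PARP9. For ARM165 against AZ2 in OCI-AML2, IFI44 lost the call in 12 of 21 alternatives and HERC5 in 10. In MOLM14, IFIT3 lost it in 11 of 21, IFIT1 in 8 of 21 and OAS3 in 5 of 20. Calls against AZ2 were also gained, for any 1 member in at most 4 alternatives (IRF7 in MOLM14).

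Libraries with the same replicate number did not deviate together (correlations of -0.037 to 0.056, none of 24 above 0.1). With a replicate block the counts were 29 and 39 against DMSO, 29 and 39 against AZ2, 25 for the difference and 0 for AZ2, in MOLM14 and OCI-AML2 in that order. Over all genes, AZ2 in OCI-AML2 gave 10 called genes with the block in place of 17. Low members such as IFI44, EPSTI1 and OASL in MOLM14 had wide intervals, and smaller changes may go undetected there.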
